A study of Mus musculus with 12 samples.

Results

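Pilra, Pilrb1, Pilrb2, Cd300a, Cd300lb and Cd300lf encode paired receptors of myeloid cells, and their RNA levels were followed in mouse microglia, which are the brain's own macrophages. The 6 genes were taken by name after their levels in the 4 groups and their same-numbered differences had been seen, and the probe set of each was selected on its mean signal over the 12 arrays. Their levels below are therefore a description, and tests on them carry that choice. Each of the 6 had 1 probe set with its symbol alone, so nothing was discarded. All 6 lay above the level below which dim genes were left out (5.36 log2), among 15273 genes tested in all. Their mean signals over the 12 arrays were 9.0 log2 for Pilra, 7.40 for Pilrb1, 6.21 for Pilrb2, 10.33 for Cd300a, 10.53 for Cd300lb and 6.71 for Cd300lf. These means describe the members, and signals of different probe sets are not set against each other.

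Paired receptors come as inhibitory and activating members with similar outer parts. Inhibitory members carry tyrosine motifs (ITIMs) that recruit phosphatases such as SHP-1, the product of Ptpn6. Activating members have short tails and signal through adaptors such as DAP12, the product of Tyrobp, which recruits the kinase Syk. PILR receptors bind sialylated glycoproteins, and several CD300 receptors bind lipids exposed on dying cells.

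Primary cells came from wild-type mice and from mice whose labels give a TLR4 knockout, and their RNA was hybridised to Mouse Gene 1.0 ST arrays (Affymetrix), 1 sample an array. The wild-type control and wild-type ischemia groups, and the knockout-labelled control and knockout-labelled ischemia groups, held 3 arrays each, numbered 1 to 3. Ischemia stands for 24 h of low oxygen or low glucose, and control for 24 h of normal supply. All 4 groups then had 24 h of normal supply (reperfusion), so each array shows cells after recovery. The labels do not describe the TLR4 alteration, nor do they name separate cultures or animals behind the 3 arrays of a group, so a p-value here measures sample-to-sample spread that may be technical. The source name of the wild-type ischemia arrays reads as control; their titles and the series key, which put them under hypoxia, were followed.

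Tlr4 checks the genotype labels. Its probe set read 8.67, 8.90 and 8.72 in the wild-type control arrays, 8.58, 9.02 and 8.54 after ischemia, 8.97, 8.64 and 8.39 in the knockout-labelled control arrays, and 8.93, 8.76 and 8.59 after ischemia. The genotypes overlapped in both conditions, so this probe set did not separate them; where it lies relative to the alteration is unknown, so it checks nothing if it lies outside. The arrays are called knockout-labelled throughout, and each genotype direction rests on the labels.

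The microglia label was checked against 12 markers, of which 11 had a probe set and 10 lay above the dim level; Gpr34 lay below it. Csf1r (12.27 log2), Itgam (11.98) and C1qa (11.43), which other macrophages share, were well above it, while P2ry12 (5.75), Siglech (5.85) and Tmem119 (6.51), which mark microglia more closely, lay nearer to it. The extraction protocol names myocytes, and 7 of 8 myocyte markers also lay above the dim level. So did 15273 of the 19938 genes with a probe set, so that count says little. The myocyte marker mean was 6.14 to 6.47 over the arrays, near the array medians given with the processing. The microglia marker mean, 8.41 to 9.30 over the arrays, lay well above those medians. These levels do not settle whether the cells were microglia or other macrophages, and a share of myocytes was not tested. Wild-type arrays numbered 2 stood apart. Their microglia marker means were 9.30 in control cells and 9.26 after ischemia, where the remaining wild-type arrays had 8.41 to 8.80. Their means of 8 border-associated macrophage markers were 7.89 and 7.73, against 7.02 to 7.28. Their means of 21 interferon-stimulated genes were 9.01 and 10.15, above the rest of their condition (7.09 and 7.55 in control cells, 8.75 and 8.35 after ischemia). The part of these differences in the results below was not tested, and the member and list calls below that rest on wild-type arrays are also given without them; neighbouring genes were not refitted. Wild-type arrays numbered 1 stood apart in other markers: the mean of 6 oligodendrocyte lineage markers was 7.33 in control cells and 7.03 after ischemia, against 6.62 to 6.77 on the remaining wild-type arrays. The mean of 8 fibroblast and mural markers was 6.32 on control array 1, against 5.85 and 5.96. In bulk samples, a change in the share of cells that make a transcript and a change per cell cannot be told apart.

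The 3 Pilr genes lie side by side on chromosome 5, and their start regions are near copies of each other. They are shown because the genes moved together below. Likeness of start regions does not show how far the probe sets can be told apart. Each window covers 300 bases around the annotated start, most of them before it, as given by RefSeq (GRCm38.p6, minus strand of chromosome 5). Capitals mark GAAATGGAAA, which matches the interferon-stimulated response element, and GGAAGT, a core bound by PU.1 and other ETS factors; both strands were searched, and the marked stretches do not overlap.
Pilra, chr5:137836229-137836528: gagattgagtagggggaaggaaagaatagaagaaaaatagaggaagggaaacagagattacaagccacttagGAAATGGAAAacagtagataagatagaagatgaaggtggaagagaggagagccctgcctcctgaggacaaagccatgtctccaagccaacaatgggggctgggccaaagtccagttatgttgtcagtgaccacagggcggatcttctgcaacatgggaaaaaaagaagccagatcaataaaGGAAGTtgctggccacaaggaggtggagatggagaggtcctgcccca
Pilrb1, chr5:137858000-137858299: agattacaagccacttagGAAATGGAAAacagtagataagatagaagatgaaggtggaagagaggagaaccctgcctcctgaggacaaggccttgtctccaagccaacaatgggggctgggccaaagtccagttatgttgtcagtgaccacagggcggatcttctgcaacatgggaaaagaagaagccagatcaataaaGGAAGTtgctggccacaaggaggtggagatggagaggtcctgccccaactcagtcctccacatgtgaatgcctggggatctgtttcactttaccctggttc
Pilrb2, chr5:137871709-137872008: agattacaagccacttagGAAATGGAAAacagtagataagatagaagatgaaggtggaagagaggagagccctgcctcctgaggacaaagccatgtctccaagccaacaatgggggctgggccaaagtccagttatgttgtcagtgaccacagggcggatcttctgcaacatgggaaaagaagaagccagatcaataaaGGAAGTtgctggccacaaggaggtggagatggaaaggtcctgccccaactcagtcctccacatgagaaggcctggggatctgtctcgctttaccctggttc

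The Pilrb1 and Pilrb2 windows were identical at 292 of 300 bases (97.3%) without a gap. The Pilra window aligned over 246 bases, since its annotated start lies 54 bases upstream of the matching place in the others. It was identical at 242 of 246 bases (98.4%) with Pilrb1 and at 244 (99.2%) with Pilrb2. All 3 windows held GAAATGGAAA once, which begins at base -178 from the start in Pilra and at -232 in both Pilrb genes. They also held GGAAGT once. Of 32851 RefSeq windows of the same length, 3.44% held a match to the interferon-stimulated response element and 23.8% held GGAAGT on either strand. None of the 3 held ACGTG, a hypoxia response element core (19.6% of windows), or TGANTCA, the AP-1 site (7.81%). A match describes the letters only.

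The Cd300 genes lie on chromosome 11 and their windows held other letters. Cd300lf is shown because its signal shared part of the Pilr pattern. It held GGAAGT at 2 places, beginning at bases -14 and 3 from the start, and none of the other motifs.
Cd300lf, chr11:115133943-115134242, minus strand: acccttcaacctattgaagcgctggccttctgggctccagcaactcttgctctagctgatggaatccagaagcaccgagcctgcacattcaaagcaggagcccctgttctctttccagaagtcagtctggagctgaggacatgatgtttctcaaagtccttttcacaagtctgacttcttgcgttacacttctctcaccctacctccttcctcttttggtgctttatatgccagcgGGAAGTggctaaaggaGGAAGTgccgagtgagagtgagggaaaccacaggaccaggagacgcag

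The Cd300lb window held GGAAGT once on the opposite strand, and the Cd300a window held none of the 4 motifs searched. Probe sequences were not used here, and whether a Pilr probe set also reads its neighbours' transcripts was not tested.

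The first comparison asked how ischemia and reperfusion changed these receptors in wild-type microglia. The 3 Pilr genes and Cd300lf were higher after ischemia, by 2.03-fold for Pilra, 1.69-fold for Pilrb1, 1.61-fold for Pilrb2 and 1.53-fold for Cd300lf, each as a ratio of group means on the log2 scale (n = 3 arrays a group). Cd300a and Cd300lb moved by 1.09-fold and 1.05-fold.

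Pilra, the inhibitory PILR receptor, read 9.31, 8.25 and 9.54 log2 in control arrays 1, 2 and 3 and 10.44, 9.57 and 10.16 after ischemia. Every ischemia array lay above every control array, and array 2 was the lowest in both conditions. Same-numbered arrays differed by 1.13, 1.31 and 0.62.

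Pilrb1, which pairs with Tyrobp as the activating counterpart, read 7.79, 7.14 and 7.90 in control cells and 8.50, 8.33 and 8.25 after ischemia. The groups again did not overlap, and the ischemia arrays (SD 0.13) were closer together than the control arrays (SD 0.41). The same-numbered differences were 0.71, 1.20 and 0.35.

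Pilrb2, the paralog next to Pilrb1, read 6.39, 5.91 and 6.52 in control cells and 7.16, 6.66 and 7.06 after ischemia, without overlap. Its same-numbered differences, 0.78, 0.75 and 0.54, were closer to each other (SD 0.13) than those of Pilra (SD 0.36) or Pilrb1 (SD 0.42). Each of the 3 Pilr genes thus moved up in all 3 pairs, as 25.8% of all genes did in the wild type.

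Cd300lf, a lipid-binding receptor with ITIMs, read 7.17, 6.27 and 6.56 in control cells and 7.22, 7.0 and 7.61 after ischemia. These groups overlapped, since control array 1 lay above ischemia array 2. The same-numbered differences were 0.05, 0.73 and 1.05, so pair 1 showed almost none of the change; array 1 is also the one with the high oligodendrocyte lineage markers, whose part was not tested.

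Cd300a, an inhibitory receptor for phosphatidylserine, read 10.37, 10.11 and 10.51 in control cells and 10.55, 10.12 and 10.69 after ischemia. Cd300lb, an activating receptor that signals through Tyrobp, read 10.28, 10.43 and 10.51, then 10.49, 10.33 and 10.63. The groups overlapped for both genes, and the fitted changes were 0.12 (95% interval -0.22 to 0.46) and 0.08 (-0.15 to 0.30) on the log2 scale.

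**Figure D1:**
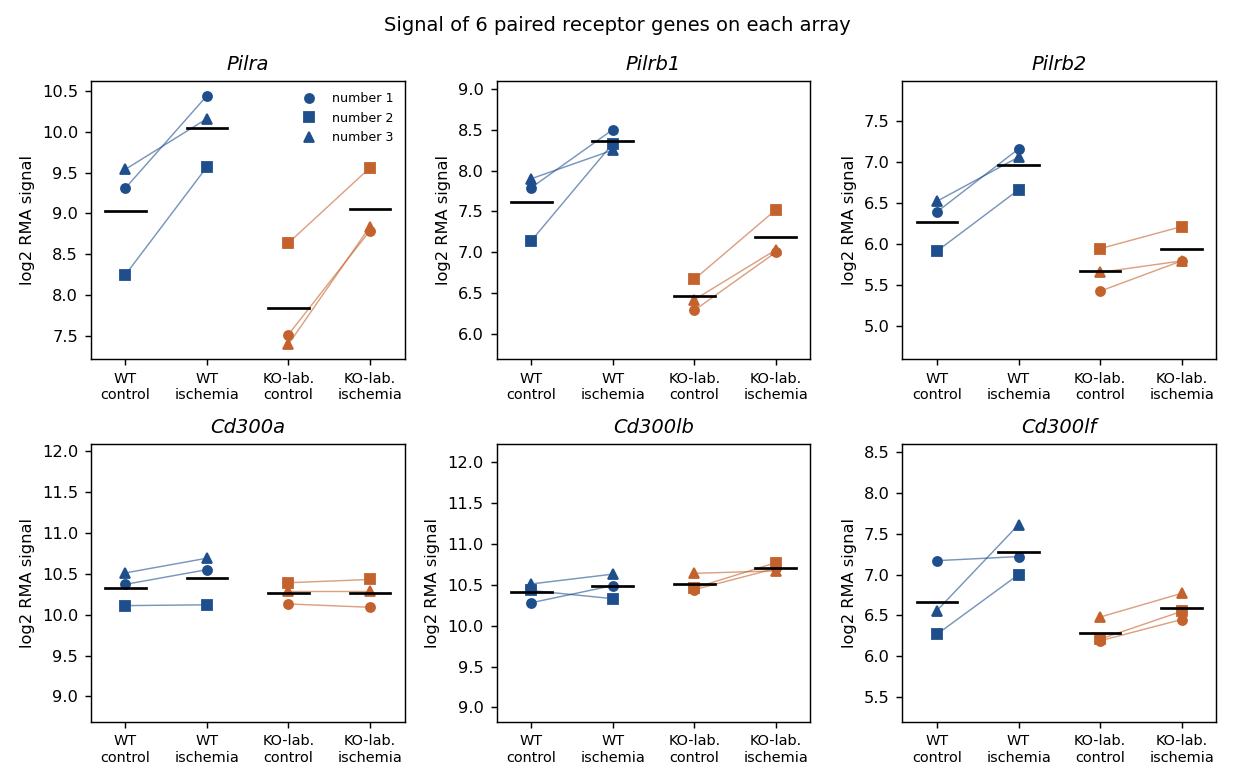
Log2 RMA signal of the 6 genes on each of the 12 arrays (vertical axes span the same range in every panel); marker shape gives the array number, thin lines join same-numbered arrays of a genotype and black bars are means of 3 arrays. The Pilr lines slope upward in both genotypes, from 9.03 to 10.05 for Pilra in the wild type and from 7.85 to 9.06 in the knockout-labelled arrays, while Cd300a and Cd300lb stay nearly level.

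In limma with 1 mean per group, 0 of the 6 genes were called at an adjusted p under 0.05, as were 0.0131% of all genes, and 4 of the 6 had an unadjusted p under 0.05, as 14.7% of all genes had. The limma adjusted p was 0.290 for Pilra (log2 change 1.02, SE 0.38), 0.262 for Pilrb1, 0.267 for Pilrb2 and 0.276 for Cd300lf. Same-numbered arrays of a genotype deviated together over all genes, as did some differently numbered ones. On the same-numbered values, a second fit took the array number as a replicate block inside each genotype. With that block 4 of the 6 rose, as 2.99% of all genes did. The limma adjusted p with the block was 0.00097 for Pilra (SE 0.13), 0.00738 for Pilrb1, 0.00164 for Pilrb2 and 0.0333 for Cd300lf. The members were chosen with results of these arrays known, and the adjustment over all genes does not account for that choice.

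Leaving out the wild-type arrays numbered 2 gave block changes of 0.87 for Pilra, 0.53 for Pilrb1 and 0.66 for Pilrb2, which all kept their call (limma adjusted p = 0.0130, 0.0464 and 0.0147). The Pilr rise was thus measured in the remaining pairs too. Cd300lf lost its call without pair 2 (0.55, limma adjusted p = 0.120) or without pair 3 (0.39, adjusted p = 0.200), and without pair 1 its change was 0.89 (adjusted p = 0.00327).

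The same exposure was then compared in the knockout-labelled microglia. Pilra was 2.31-fold higher after ischemia and Pilrb1 1.66-fold higher, while Pilrb2 was 1.20-fold and Cd300lf 1.23-fold higher. Interferon-stimulated genes, of which 21 of 21 were higher after ischemia in the wild type (median 1.22), had a median of -0.11 here.

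Pilra read 7.52, 8.64 and 7.40 in knockout-labelled control arrays and 8.79, 9.56 and 8.84 after ischemia. The groups did not overlap, and the same-numbered differences were 1.26, 0.91 and 1.45. Array 2 was the highest in both conditions, where in the wild type array 2 was the lowest; the numbers are not shared between genotypes.

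Pilrb1 read 6.29, 6.67 and 6.42 in control cells and 7.0, 7.52 and 7.03 after ischemia, again without overlap. Its same-numbered differences were 0.72, 0.86 and 0.61. Pilrb2 read 5.42, 5.94 and 5.65, then 5.79, 6.21 and 5.79, with differences of 0.37, 0.27 and 0.14. Its groups overlapped, and all 3 pairs were higher by a smaller step than in the wild type. These Pilrb2 values lay near the dim level (5.36 log2), and whether low signal made the step smaller was not tested.

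Cd300lf read 6.19, 6.21 and 6.48 in control cells and 6.45, 6.55 and 6.77 after ischemia, with same-numbered differences of 0.26, 0.34 and 0.28. These lay close together (SD 0.04), unlike those of the wild type (SD 0.51). Cd300lb read 10.44, 10.46 and 10.64 and then 10.70, 10.77 and 10.67, which did not overlap although the fitted change was 0.20 (95% interval -0.02 to 0.43). Cd300a read 10.13, 10.39 and 10.29 and then 10.09, 10.43 and 10.29, so no pair moved by more than 0.04.

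Groups did not overlap for 3 of the 6 genes, all higher, as for 7.94% of all genes in that direction; in the wild type the same count was 3, where 9.38% of all genes did so. Pilra, Pilrb1, Pilrb2 and Cd300lf were higher in all 3 pairs of both genotypes, and 10.7% of all genes were. In limma without the block 0 of the 6 genes were called, as 0% of all genes were, and 2 had an unadjusted p under 0.05, as 8.73% of all genes had (limma adjusted p = 0.560 for both Pilra and Pilrb1). With the block Pilra (SE 0.13) and Pilrb1 (SE 0.13) rose, at a limma adjusted p = 0.00289 and 0.0249, as 0.537% of all genes did. By unadjusted p, Pilra ranked 2 of 15273 genes in that fit and 175 in the fit without the block. Pilra was chosen after its same-numbered differences had been seen, so both ranks carry that choice. Pilrb2 did not pass (0.26, limma adjusted p = 0.179), nor did Cd300lf (0.30, adjusted p = 0.281) or Cd300lb (adjusted p = 0.295).

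The call for Pilra was lost without knockout-labelled pair 3 (change 1.09, limma adjusted p = 0.0747). That for Pilrb1 was lost without pair 2 (0.66, adjusted p = 0.253) or pair 3 (0.79, adjusted p = 0.128). The changes themselves stayed between 1.09 and 1.35 for Pilra and between 0.66 and 0.79 for Pilrb1.

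**Figure D2:**
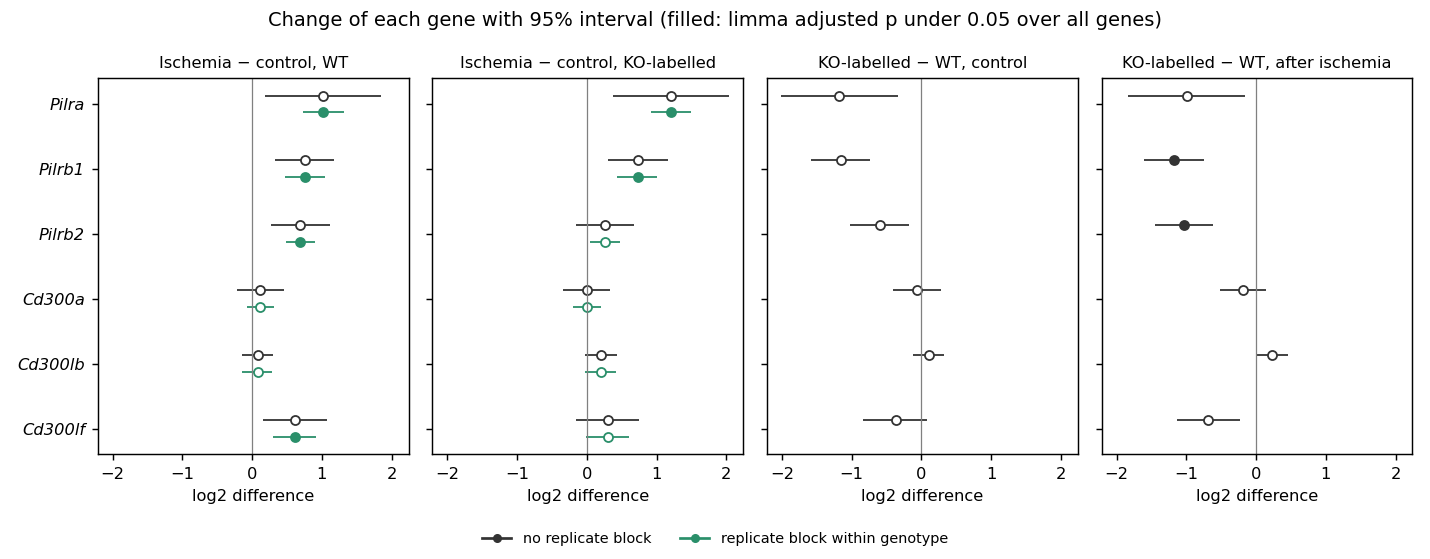
Log2 difference of each gene in 4 comparisons, with 95% intervals from limma; black is the fit without and green with the replicate block, and filled points have an adjusted p under 0.05 over 15273 genes. The points for Pilra and Pilrb1 lie near 1 in both ischemia panels and near -1 in both genotype panels, while those of Cd300a and Cd300lb lie near 0.

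Whether the ischemia change itself differed between genotypes was tested as an interaction. The difference, knockout-labelled minus wild type, was 0.19 for Pilra (95% interval -0.99 to 1.37), -0.03 for Pilrb1 (-0.63 to 0.58) and -0.43 for Pilrb2 (-1.03 to 0.17). For the CD300 genes it was -0.12 for Cd300a, 0.12 for Cd300lb and -0.31 for Cd300lf. Limma called 0 of the 6 genes without the block, where 0% of all genes were called and 0 of the 6 had an unadjusted p under 0.05 (2.9% of all genes). It also called 0 with the block, where 0.308% were called and 1 of the 6 had an unadjusted p under 0.05 (8.45% of all genes). That 1 gene was Pilrb2, with a block interval of -0.73 to -0.14 (limma adjusted p = 0.417). Its knockout-labelled signal lay near the dim level, and the part of low signal in this difference was not tested. For Pilra and Pilrb1 the block intervals were -0.22 to 0.59 and -0.43 to 0.37, so differences of those sizes between the genotypes' responses were not resolved.

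The third comparison set the genotypes side by side in control cells. Knockout-labelled arrays read 2.27-fold lower for Pilra, 2.22-fold lower for Pilrb1 and 1.52-fold lower for Pilrb2 than wild-type arrays (n = 3 a group). Cd300lf was 1.29-fold lower, and Cd300a and Cd300lb differed by -0.06 and 0.11 on the log2 scale.

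Pilrb1 was the single member whose groups did not overlap (6.29 to 6.67 against 7.14 to 7.90), where 4.52% of all genes were lower without overlap. The Pilra groups overlapped, since knockout-labelled array 2 (8.64) lay above wild-type array 2 (8.25), and the Pilrb2 groups overlapped at the same arrays (5.94 and 5.91). Limma called 0 of the 6 genes, where 0.0589% of all genes were called, and 3 had an unadjusted p under 0.05, as 7.14% of all genes had. The limma adjusted p was 0.0954 for Pilrb1 (-1.15, SE 0.20), 0.605 for Pilra (-1.18, SE 0.38) and 0.597 for Pilrb2 (-0.60, SE 0.19). Without wild-type control array 2 Pilrb1 was called (-1.39, limma adjusted p = 0.00746), while Pilra (-1.57, adjusted p = 0.189), Pilrb2 (-0.78, adjusted p = 0.209) and Cd300lf (-0.57, adjusted p = 0.422) were not.

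After ischemia the Pilr genes were again lower in the knockout-labelled arrays, by 1.99-fold for Pilra, 2.26-fold for Pilrb1 and 2.04-fold for Pilrb2. Cd300lf was 1.61-fold lower. Cd300lb was the exception, at 1.17-fold higher.

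The groups did not overlap for Pilra (8.79 to 9.56 against 9.57 to 10.44), Pilrb1 (7.0 to 7.52 against 8.25 to 8.50), Pilrb2 (5.79 to 6.21 against 6.66 to 7.16) and Cd300lf (6.45 to 6.77 against 7.0 to 7.61), all lower. Pilra was separated by a margin of rounding size, and Pilrb1 by the widest gap of these. Cd300lb did not overlap in the other direction (10.67 to 10.77 against 10.33 to 10.63). Of all genes, 8.07% were lower and 8.38% higher without overlap.

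Limma called 2 of the 6 genes as lower, as it did 0.648% of all genes. Pilrb1 fell by 1.18 on the log2 scale (SE 0.20, limma adjusted p = 0.0167) and Pilrb2 fell by 1.03 (SE 0.19, adjusted p = 0.0312). Pilra (-0.99, SE 0.38, adjusted p = 0.469), Cd300lf (-0.69, SE 0.21, adjusted p = 0.261) and Cd300lb (0.23, SE 0.10, adjusted p = 0.582) did not pass. Both calls rested on single arrays. Without knockout-labelled ischemia array 1, knockout-labelled ischemia array 3 or wild-type ischemia array 1, Pilrb1 had a limma adjusted p = 0.122, 0.0967 and 0.0710. For Pilrb2 the same arrays gave 0.186, 0.148 and 0.136, and leaving out wild-type ischemia array 3 gave 0.104. The changes were -1.35 to -1.09 and -1.18 to -0.93 with any array left out. Without wild-type ischemia array 2, which stood apart, both calls held (-1.19 and -1.18 on the log2 scale), and Pilra (-1.24) and Cd300lf (-0.83) were still not called. The interferon-stimulated genes also differed here, with 21 of 21 lower in the knockout-labelled arrays (median -2.39); their part in the Pilr difference was not tested. This comparison and the ischemia comparison of each genotype use the same ischemia arrays.

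The order of the 4 group levels differed between the genes. For Pilra it ran from knockout-labelled control (7.85 ± 0.69, SD, n = 3) to wild-type control (9.03 ± 0.69), knockout-labelled ischemia (9.06 ± 0.43) and wild-type ischemia (10.05 ± 0.45). The middle groups overlapped and had nearly the same mean, so knockout-labelled cells after ischemia read at the level of wild-type control cells.

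For Pilrb1 the order was knockout-labelled control (6.46 ± 0.19), knockout-labelled ischemia (7.19 ± 0.29), wild-type control (7.61 ± 0.41) and wild-type ischemia (8.36 ± 0.13). Here too the middle groups overlapped. The outer steps of Pilrb1 did not, whereas for Pilra the lower outer step overlapped and the upper did not. Pilrb2 followed the same order (5.67 ± 0.26, 5.93 ± 0.24, 6.27 ± 0.32 and 6.96 ± 0.27), and the step to wild-type ischemia was the single one without overlap. Cd300lf had that order as well (6.29 ± 0.16, 6.59 ± 0.16, 6.67 ± 0.46 and 7.28 ± 0.31), with overlap at every step. For Cd300lb both wild-type groups came first, control (10.41 ± 0.11) and ischemia (10.48 ± 0.15), then knockout-labelled control (10.51 ± 0.11) and ischemia (10.71 ± 0.05). Cd300a held between 10.27 ± 0.17 and 10.45 ± 0.29 with overlap at every step.

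Genes next to the Pilr genes are given as a description. The 5 measured genes on either side, among them the DNA replication gene Mcm7 and the signalosome subunit gene Cops6, changed by -0.43 to 0.41 after ischemia in the wild type and by -0.38 to 0.26 in the knockout-labelled arrays. Between genotypes after ischemia they differed by -0.39 to 0.17. Limma called 0 of these 10 neighbours in any of the 5 comparisons without the block, and with the block Mcm7 fell in the wild type (-0.43, limma adjusted p = 0.0245). The 3 Pilr values lay outside the neighbours' range in the wild-type ischemia comparison and in the genotype comparison after ischemia. In the knockout-labelled ischemia comparison Pilrb2 (0.26) lay within it, and Tsc22d4 changed by -0.38.

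The Cd300 region was mixed. The 15 measured genes around and between the 3 Cd300 members changed by -0.32 to 0.49 in the wild type. With the block Cd300ld (0.47, limma adjusted p = 0.0288) and the acetyltransferase gene Nat9 (0.49, adjusted p = 0.0349) rose. The order of genes is that of GRCm38.p6, which may differ from the build of the platform annotation.

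**Figure D3:**
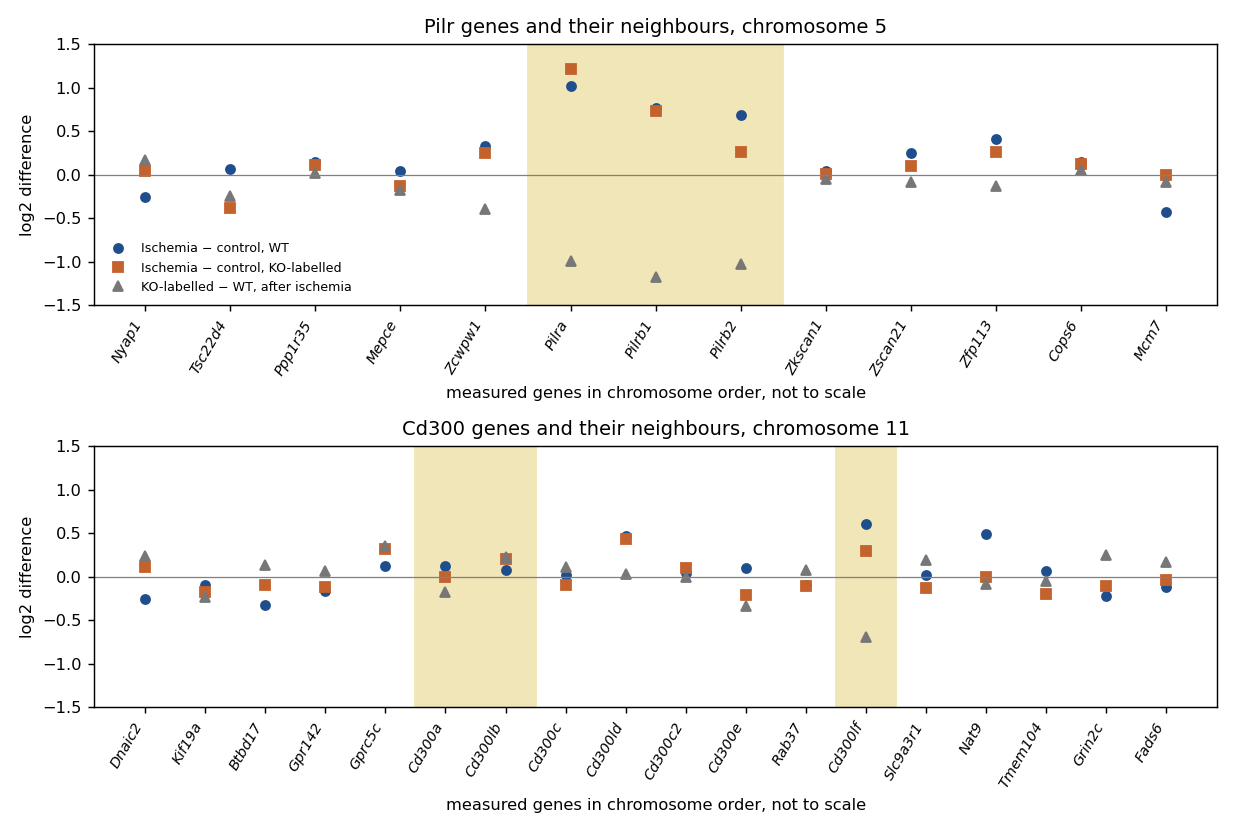
Log2 difference of the members (shaded) and of measured neighbours in chromosome order, which is not to scale, for ischemia against control in each genotype and for knockout-labelled against wild type after ischemia. The 3 Pilr genes stand off from zero at 0.69 to 1.02 in the wild-type ischemia comparison and -1.18 to -0.99 in the genotype comparison, while their neighbours stay within -0.43 to 0.41.

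Other members of the CD300 family were mostly level. Of 10 listed names, 5 had a probe set of their own; 5 were higher after ischemia in the wild type, with a median of 0.04 against 0.012 for all genes. With the block, Cd300ld alone rose (limma adjusted p = 0.0288; 0.0139 without the wild-type arrays numbered 2), and in the knockout-labelled arrays its change of 0.43 did not pass (adjusted p = 0.0763). Cd300e (0.10) and Cd300c (0.02) did not pass. Between genotypes after ischemia limma called 0 of the 5, and 1 had an unadjusted p under 0.05 (8.35% of all genes).

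Protein ligands of the PILR receptors were listed as Cd99, Pianp, Npdc1 and Clec4g, of which 3 had a probe set of their own. Limma called 0 of the 3 in any comparison with or without the block. After ischemia in the wild type Pianp was 0.07 higher, Npdc1 was at -0.25 and Clec4g at -0.06. In that comparison 0 of the 3 had an unadjusted p under 0.05 without the block (14.7% of all genes) and 1 with it (24.1%).

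Genes that act downstream of such receptors were read next. Of 8 genes of inhibitory signalling through ITIMs, limma called 0 in any comparison. At most 3 had an unadjusted p under 0.05, in the wild-type ischemia comparison with the block, as 24.1% of all genes had. Ptpn6, the phosphatase SHP-1, changed by 0.23 (adjusted p = 0.428) after ischemia in the wild type, and Dok2, an adaptor that restrains Ras signalling, by 0.34 (adjusted p = 0.327). Inpp5d, the lipid phosphatase SHIP-1, changed by 0.01. Dok3 changed by 0.15 in the wild type and by -0.28 in the knockout-labelled arrays (limma adjusted p with the block 0.337 and 0.147). The difference between its changes was -0.44 and was not called (limma adjusted p with the block 0.401).

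All 18 tested genes listed under activating signalling were higher after ischemia in the wild type (list median 0.10). The median of all genes there was 0.012, or 0.068 with the dim filter at the 50th percentile and -0.026 with quantile normalization. In the knockout-labelled arrays 10 of 18 were higher (list median 0.03, all genes -0.001, or 0.031 with that filter). The share of all genes that were higher is not given, and the part of such a shift in these counts was not tested. The list was not divided into genes that carry the signal and genes that restrain it. With the block, the Src family kinase gene Fgr (0.50, limma adjusted p = 0.0289) and the adaptor gene Sla (0.45, adjusted p = 0.0350) rose in the wild type, and Malt1, a signalling protease, rose in the knockout-labelled arrays (0.61, adjusted p = 0.0296). Tyrobp, the adaptor of Pilrb1 and Cd300lb, changed by 0.12 and -0.20 and was not called in either genotype (adjusted p = 0.721 and 0.654; with the block 0.483 and 0.297). Syk changed by 0.02 and -0.14 (adjusted p with the block 0.908 and 0.488). Limma called 0 of the 18 between genotypes after ischemia, where 8 had an unadjusted p under 0.05 (8.35% of all genes); Fgr was at -1.61 (SE 0.48, adjusted p = 0.243), a larger difference than that of any Pilr gene. Without the wild-type arrays numbered 2 the ischemia calls of Fgr (0.48, limma adjusted p = 0.0923) and Sla (0.46, adjusted p = 0.0898) were lost.

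Among 14 other inhibitory receptors of myeloid cells, 12 were higher after ischemia in the wild type (median 0.20), and with the block 4 rose. These were the lectin receptor genes Clec4a2 (0.67, limma adjusted p = 0.0125) and Clec12a (0.52, adjusted p = 0.0373), and Milr1 (0.47, adjusted p = 0.0372) and Slamf8 (0.44, adjusted p = 0.0385). Without the wild-type arrays numbered 2 all 4 kept their call, with changes of 0.56 to 0.79. In the knockout-labelled arrays 11 of 14 were higher (median 0.17) and 0 passed with the block, with 7 at an unadjusted p under 0.05, as 19.2% of all genes were. Siglece, an inhibitory sialic acid receptor, fell by 1.17 in the knockout-labelled arrays after ischemia compared with the wild type (SE 0.22, limma adjusted p = 0.0328), a call lost without wild-type ischemia array 2 (-1.05, adjusted p = 0.0948). Its ischemia change was 0.03 in wild-type cells, against -0.11 with the knockout label, and neither passed.

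Among 15 genes listed as other activating receptors, 9 were higher after ischemia in the wild type (median 0.31), and with the block 2 rose. Clec4e, the receptor Mincle for damaged cells and mycobacterial lipids, rose by 0.91 (limma adjusted p = 0.00964) and Siglec1, a sialic acid receptor of macrophages, by 0.62 (adjusted p = 0.00547). Without the wild-type arrays numbered 2 Clec4e lost its call (0.69, limma adjusted p = 0.0648) and Siglec1 kept it (0.53, adjusted p = 0.0400). In the knockout-labelled arrays Clec5a, a Tyrobp-coupled lectin receptor, rose by 0.86 (adjusted p = 0.00547), while Clec4e, at 0.77, did not pass (adjusted p = 0.0550). Of the 15 genes, 10 were lower in the knockout-labelled arrays after ischemia, with a median of -0.32. Siglec1 was lower there (-1.72, SE 0.27, limma adjusted p = 0.0127), and Clec4e (-1.90, SE 0.41, adjusted p = 0.0623) did not pass. Without wild-type ischemia array 2 both passed (-1.52 and -2.25, limma adjusted p = 0.0351 and 0.0323). In control cells Siglec1 was at -0.93 and Clec4e at -1.76, and neither passed (limma adjusted p = 0.570 and 0.327). Without wild-type control array 2 Clec4e passed there (-2.34, limma adjusted p = 0.00802) and Siglec1 did not (-0.81, adjusted p = 0.444). Counts of calls and of unadjusted p for these lists were read beside the background shares given above. Counts of genes that were higher or lower had no such share, and the lists were chosen with results of these arrays known.

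**Figure D4:**
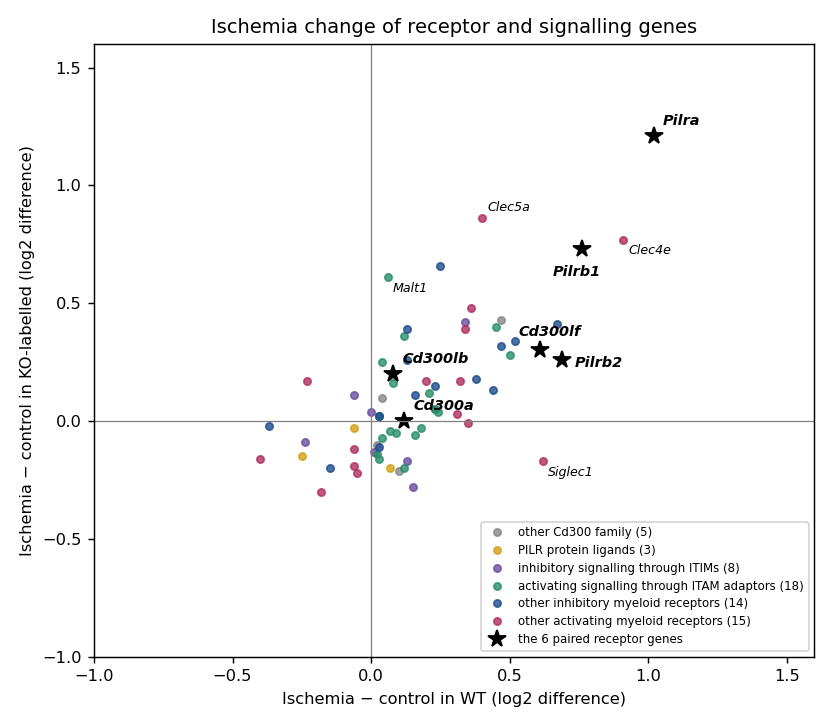
Ischemia change in the wild type (horizontal, log2 difference) against the change in knockout-labelled arrays (vertical) for the 6 paired receptor genes (stars) and the tested members of 6 gene lists, with the number tested in brackets. Pilra lies farthest to the upper right at 1.02 and 1.21, near Pilrb1 (0.76 and 0.73) and Clec4e (0.91 and 0.77), and Siglec1 lies at 0.62 and -0.17.

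Genes with the most similar profiles were found by Pearson r over the 12 arrays among the genes tested, with the 6 members left out as candidates. The members themselves correlated at 0.93 (Pilra and Pilrb1), 0.92 (Pilra and Pilrb2) and 0.96 (Pilrb1 and Pilrb2). The arrays share groups and numbers, so r is a description without a p-value. Among genes that are not members, those most similar to Pilra were Zfp608 (r = 0.933), Naip6 (0.922) and Pygl (0.917), whose ischemia changes were smaller, at 0.29, 0.25 and 0.22 in the wild type and 0.17, 0.21 and 0.22 in the knockout-labelled arrays. Pygl encodes liver glycogen phosphorylase, and Naip6 belongs to the Naip family of sensor genes.

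Outside the members, the most similar to Pilrb1 were Tgfbi (0.929), Clec4e (0.926) and the purinergic receptor gene P2ry13 (0.926), with wild-type ischemia changes of 0.52, 0.91 and 0.41. Those for Pilrb2 were Timd4, a phosphatidylserine receptor gene (0.940), Vnn3 (0.939) and the class I-like gene H2-M2 (0.935). These 3 were higher after ischemia in the wild type (1.37, 1.00 and 1.32) and level in the knockout-labelled arrays (-0.01, 0.15 and 0.04). Pilrb2 itself was at 0.69 and 0.26.

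Cd300a was most similar to F10, coagulation factor X (0.977), Pla2g2d (0.957) and Lilra5 (0.943). Cd300lb was most similar to Elmo3 (0.895), Adamts10 (0.876) and Arl3 (0.865), and Cd300lf to Dhx38 (0.904), Naaa, which encodes a lysosomal amidase (0.902), and Fkbp15 (0.886). Since Cd300a and Cd300lb spanned 0.60 and 0.49 log2 over all 12 arrays, their r values describe small differences between arrays.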

How the data were processed

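The authors deposited log2 signals per probe set, made with Affymetrix Expression Console 1.1 and RMA (background correction, quantile normalization, probe summary), per the submitters' processing notes. Values ran from 1.25 to 14.5 with array medians of 6.30 to 6.40; the number of arrays limits the precision. Of 35557 probe sets, 21789 had 1 symbol in the platform annotation, 1621 had several, which were left unnamed; 21698 probe sets were matched to RefSeq symbols (GRCm38.p6) by Entrez identifier. The brightest probe set stood for a gene. Dim genes, whose mean did not exceed 5.36 log2 (30th percentile over probe sets), were left out.

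Groups came from the titles. Limma 3.58.1 in R 4.3.3 (lmFit, eBayes) fitted 1 mean per group over 12 arrays, with Benjamini-Hochberg adjustment over 15273 genes. Same-numbered arrays correlated in their deviations from group means at 0.48, 0.73 and 0.48 in the wild type and 0.36, 0.32 and 0.49 in the knockout-labelled arrays. Each passed 0.1, so numbers were taken to pair arrays within a genotype. Some differently numbered arrays passed 0.1 too, so that mark alone does not separate the pairs. These were wild-type control 1 with ischemia 3 (0.40), wild-type control 3 with ischemia 1 (0.12) and knockout-labelled control 1 with ischemia 2 (0.22). The remaining differently numbered values within a genotype were negative. Between genotypes the same-numbered values ran from -0.33 to 0.33 and were not taken to pair. Steps were tested on simulated data. Promoter windows were aligned with Biopython 1.88.

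Members and lists were chosen with earlier results of these data known. Named genes are all 6 members, Tlr4, called list members or the 3 with the smallest p, and the 3 most similar genes; Tyrobp, Syk and Inpp5d were named for their role, and the neighbours were chosen after values were seen. From the interferon and marker lists only summaries are given. Alternatives were the arrays in the fit, the dim filter, normalization, the spread model, the probe set rule, the replicate block and each array left out. Leaving out the wild-type arrays numbered 2 for list genes was chosen after seeing the data.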

Additional observations from a re-analysis of the deposited data

Results flagged for a closer look

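Siglec1, which was listed with the other activating receptors, had an ischemia change that differed between genotypes in the fit with the block only. With the replicate block within genotype the difference, knockout-labelled minus wild type, was -0.79 on the log2 scale (SE 0.15, limma adjusted p = 0.0371 over all genes), from a rise of 0.62 in the wild type and a change of -0.17 in the knockout-labelled arrays. Without the block the same difference had an SE of 0.39 and a limma adjusted p = 1, and with the block but without the wild-type arrays numbered 2 it was -0.71 (adjusted p = 0.172). None of the 6 paired receptor genes met this mark; by unadjusted p the nearest was Pilrb2 (-0.43, limma adjusted p = 0.417 with the block).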

How the results depend on the processing

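Arrays, 3 a group, limit the precision. Where groups were compared directly, differences under about 0.2 to 0.8 on the log2 scale were within the intervals. Intervals of the interaction without the block were wider, for Pilra -0.99 to 1.37. Members near the dim level, such as Pilrb2 in the knockout-labelled arrays, have little signal over background. Without the block 0 of the 6 genes were called after ischemia in either genotype; with the replicate block within genotype 4 were called in the wild type (3 to 4 with a pair left out) and 2 in the knockout-labelled arrays (0 to 2 with a pair left out; leaving out pairs was chosen after seeing the data). For knockout-labelled against wild type after ischemia, 2 were called, 1 with the dim filter at the 50th percentile, where Pilrb2 was not tested, and 0 to 2 with an array left out; in control cells 0 were called, and 0 to 1 with an array left out. The causes were not tested. Reversed values were all uncalled. The interaction of Pilra ran from -0.06 to 0.58 with an array left out and -0.01 to 0.33 with a pair left out under the block. That of Pilrb1 was 0.08 with quantile normalization, -0.19 to 0.21 with an array and -0.23 to 0.19 with a pair left out. Cd300a after ischemia in the knockout-labelled arrays was 0.01 with median centring, -0.08 to 0.09 with an array and -0.02 to 0.02 with a pair left out (0.00011 without pair 3), and its genotype difference in control cells was -0.17 to 0.03 with an array left out. Cd300lb in the wild type was -0.02 with quantile normalization. Of the remaining alternatives for single genes, 492 kept direction and side of the threshold, 20 gained a call and 7 lost one.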
